A study of Thermothelomyces thermophilus with 14 samples.

Results

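The genes described here are 8 loci of the thermophilic filamentous fungus Myceliophthora thermophila whose messenger RNA was high when mycelium was given xylobiose and low when cellobiose was given along with it. They were selected by their levels, out of 9110 genes in the count table. Levels are given as CPM, read counts divided by library size after TMM scaling, in which most genes are taken as unchanged. For each gene a base was taken as its highest value in any library with no carbon, cellobiose alone or glucose plus xylose, with a floor of 0.5 CPM. A gene was included when its lower xylobiose value was at least 10 CPM, at least 4 times base and at least 4 times the higher value in the mixture of cellobiose and xylobiose, and when both mixture values were under 4 times base. Of 4 loci set aside from the search, MYCTH_89603, MYCTH_49824, MYCTH_80312 and MYCTH_2303011, none met these conditions.

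All 14 libraries came from wild-type mycelium of strain ATCC 42464, pregrown and then held for 4 h in Vogel's salts with or without a carbon source, 2 libraries to a group. The flask experiment (100 mL) compared XA, which held 1% Avicel, a microcrystalline cellulose, with 1% xylan, and Xylan, which held 2% xylan. The plate experiment (5 mL in wells) comprised G2X2 (2% cellobiose with 2% xylobiose), X2 (2% xylobiose), G2 (2% cellobiose), GX (1% glucose with 1% xylose) and NoCarbon2 (no carbon source). G2X2 thus held as much xylobiose as X2 and more sugar in all than any other plate group, while XA held less xylan than Xylan. Whether the 2 libraries of a group came from separate cultures is not stated in the labels, so each p-value reflects the spread between these libraries, possibly a technical one. RNA was taken from whole mycelium, in which fewer expressing cells and less RNA per cell cannot be told apart.

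Xylobiose joins a pair of xylose units and is released from xylan by xylanases; cellobiose joins a pair of glucose units and is released from cellulose by cellobiohydrolases. In filamentous fungi such short sugars act as inducers of genes for plant cell wall breakdown, through transcription factors of the XLR-1 (XYR-1) family for xylan and the CLR family for cellulose. Many of these genes are also lowered by easily used sugars such as glucose, in part through the repressor CRE-1. The sources used here pair the 8 loci with no product or gene name, so each is called by its locus tag and no role is given.

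Each library held 17992946 to 25254924 counts assigned to genes, and the 8 genes had between 10 and 40318 counts in single libraries. TMM factors ranged from 0.735 to 1.2. Replicates differed most in X2 and NoCarbon2, where the median ratio of the higher to the lower library over all tested genes was 1.31 and 1.30, while it was 1.10 to 1.22 in the other groups. For the 8 genes the X2 ratio ranged from 1.16 to 2.47, with replicate 2 the higher library in 7 of 8. The inclusion rule used the lower X2 value, so the higher X2 library enters the means given below but not the choice of genes.

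Among all genes, 27 of 9110 (0.296%) had a lower X2 value of at least 10 CPM and at least 4 times base. Among these 27, the 8 genes lost in the mixture stood beside 11 kept in it, whose lower G2X2 value was at least 4 times base, and 8 that were neither. The 11 kept genes included the xylanase loci MYCTH_89603, MYCTH_49824, MYCTH_112050 and MYCTH_56237 and the disaccharide transporter locus cdt-2 (MYCTH_114107). The mean G2X2 level was 2.53% to 16.5% of the mean X2 level for the 8 lost genes (median 13.3%) and 5.96% to 268% for the 11 kept genes (median 34.4%). These plate values chose the genes and are given as a description, without a test. The ranges overlap because a kept gene could fall far below its X2 level and still exceed 4 times base, as MYCTH_89603 did.

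**Figure D1:**
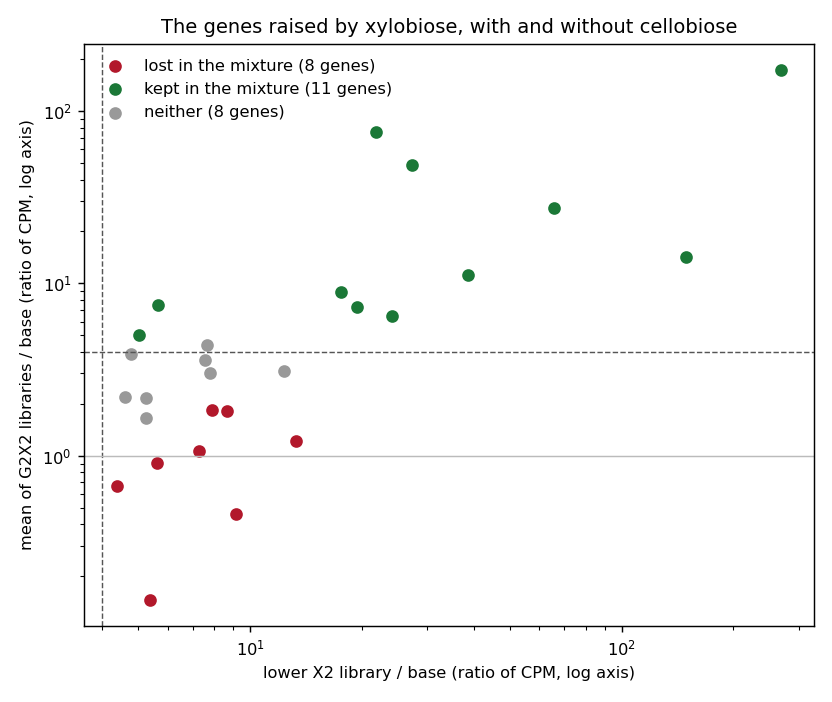
The 27 genes raised by xylobiose, each a point: the lower X2 library as a multiple of base (horizontal, log axis) against the mean of the G2X2 libraries as a multiple of base (vertical, log axis), with dashed lines at 4 times base and a solid line at base. The 8 lost genes lie at or below 1.85 times base in the mixture, and 4 of them lie below base.

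How complete the loss was differed among the 8 genes. For 2 of them, MYCTH_2293953 and MYCTH_80104, both G2X2 libraries remained above every G2, GX and NoCarbon2 library, so that "lost" means reduced and not brought to base. For the other 6 at least 1 G2X2 library was within or below the range of those libraries. Near the thresholds, MYCTH_2293953 was just inside, with a lower X2 value 4.05 times its higher G2X2 value. MYCTH_2301869 was just outside, with a ratio of 3.86 (159.5 against 41.3 CPM). MYCTH_2130777 was inside at 4.39 times base, and MYCTH_2311484 was outside at 3.81 times base.

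**Figure D2:**
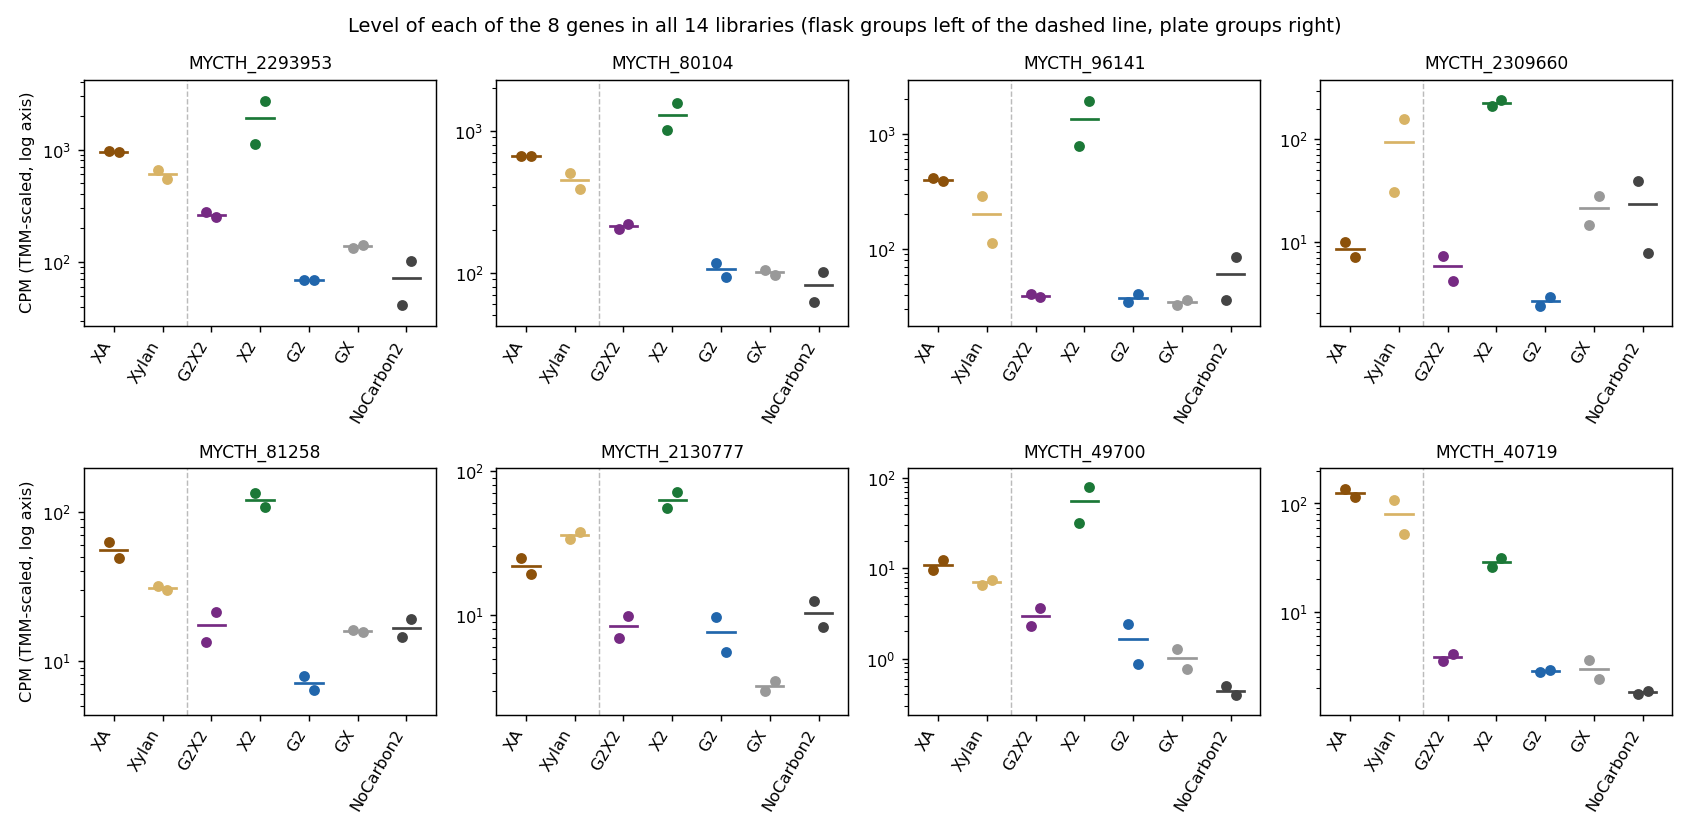
CPM of each of the 8 genes (log axis) in the 14 libraries, by group; points are single libraries and short lines are means of 2 libraries. In the plate groups X2 is the high group for each gene by selection; in the flask groups, which the rule did not use, MYCTH_2309660 and MYCTH_2130777 were lower in XA than in Xylan and the other 6 were higher.

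The flask cultures did not enter the rule, so they show the 8 genes in samples that did not choose them. The question of that experiment is which genes respond when cellulose replaces part of the xylan. Genes were called at an adjusted p under 0.05 over 8567 tested genes (edgeR's quasi-likelihood test, Benjamini-Hochberg). Of the 8 genes 1 was called higher in XA, 1 was called lower and 6 were not called. Over all tested genes 14.8% were called higher, 17.1% lower and 31.9% in either direction, so the share of called genes among the 8 lay near the background. The median log2 fold change of the 8 was 0.64, with 6 above 0 and 2 below, against a median of 0.01 over all tested genes. Without Xylan replicate 2 the median of the 8 was 0.42. That fit lost the calls among the 8 and also called fewer of all tested genes. Among the 11 kept genes 8 were called higher and 0 lower (9 above 0), with a median of 1.40; with 1 flask library left out 4 or 5 of these 11 were called higher. An unadjusted p under 0.05 was reached by 5 of the 8 lost genes, 8 of the 11 kept genes and 3729 of all 8567 tested genes. The 8 genes raised by xylobiose that were neither lost nor kept had a median of -0.24, with 3 above 0 and 5 below. Of these, 1 was called higher and 1 lower, and 5 reached an unadjusted p under 0.05 (edgeR). Differences between the sets were not tested. The libraries of the 2 flask groups did not overlap for any of the 8 lost genes, with XA above Xylan in 6 and below it in 2. Over all tested genes 39% had both XA libraries above both Xylan libraries and 37% had both below.

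**Figure D3:**
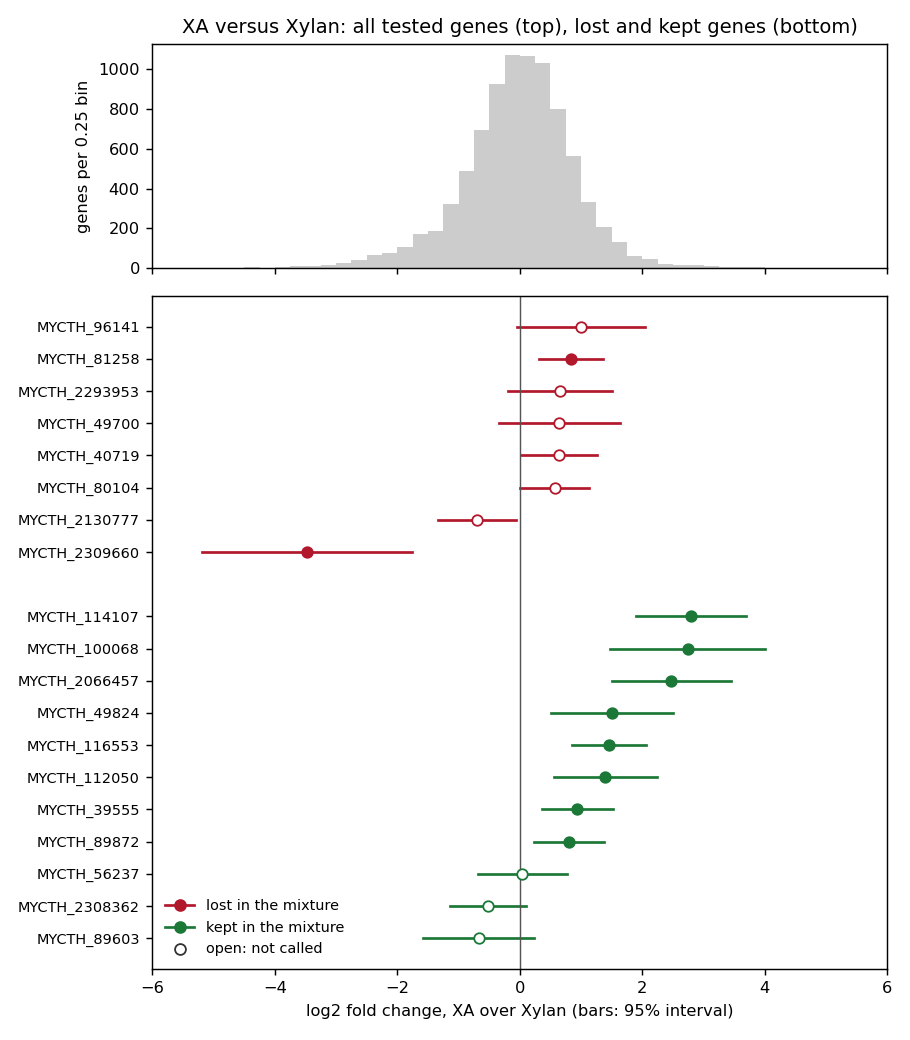
Top, number of tested genes by log2 fold change of XA over Xylan in bins of 0.25, with values beyond 6 in either direction counted in the end bins; bottom, the 8 lost genes and the 11 kept genes, with 95% intervals, filled where called. MYCTH_81258 and MYCTH_2309660 are the called genes among the lost ones, at 0.84 and -3.48.

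MYCTH_81258 was the gene called higher with Avicel in the medium. It stood at 62.6 and 49.0 CPM in XA, against 32.1 and 30.2 CPM in Xylan. The rise was 0.84 ± 0.24 on the log2 scale (adjusted p = 0.0198, edgeR; higher in 2 of 2 libraries), a factor of 1.79. The call was lost without XA replicate 1 (0.65, adjusted p = 0.155), without Xylan replicate 1 (0.90, adjusted p = 0.0598) and without Xylan replicate 2 (0.78, adjusted p = 0.121). Over all alternatives run its adjusted p ranged from 0.00905 to 0.155. In the plates it had 13.5 and 21.4 CPM in G2X2 and 135 and 107 CPM in X2. It had 7.96 and 6.37 CPM in G2, 16.2 and 15.6 CPM in GX and 14.4 and 19.1 CPM in NoCarbon2. The G2X2 libraries thus lay on either side of the GX and NoCarbon2 values and above those of G2.

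MYCTH_2309660 was the gene called lower with Avicel in the medium. It had 9.84 and 7.13 CPM in XA, against 30.6 and 159 CPM in Xylan. The fall was -3.48 ± 0.79 on the log2 scale (adjusted p = 0.00636, edgeR; lower in 2 of 2 libraries). Its Xylan libraries differed by 5.18 times. Without Xylan replicate 2, the higher of them, the value was -1.86 and not called (adjusted p = 0.0814); without XA replicate 2 it was -3.25 and not called (adjusted p = 0.0648). The adjusted p ranged from 0.000459 to 0.0814 over the alternatives run. In the plates this gene had 7.32 and 4.16 CPM in G2X2 and 210.0 and 244 CPM in X2, the largest relative loss of the 8. Its levels were 2.38 and 2.89 CPM in G2, 14.7 and 28.3 CPM in GX and 39.2 and 7.75 CPM in NoCarbon2. The libraries with cellobiose, G2X2 and G2, were the lowest, and both were below every GX and NoCarbon2 library. The NoCarbon2 libraries differed by 5.05 times, so its base rests on replicate 1 of that group.

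MYCTH_96141 showed the next largest relative loss in the plates and the largest positive log2 fold change of the 8 in the flasks. It stood at 40.4 and 38.2 CPM in G2X2, against 786 and 1939 CPM in X2. The G2X2 values lay among those of G2 (34.9 and 40.8 CPM), GX (32.9 and 36.4 CPM) and NoCarbon2 (36.3 and 85.6 CPM), and no G2X2 library exceeded the higher NoCarbon2 library. In the flasks it reached 414 and 387 CPM in XA, against 287 and 114 CPM in Xylan. The difference of 1.00 ± 0.48 on the log2 scale was not called (adjusted p = 0.128, edgeR), with a 95% interval from -0.04 to 2.04. Without Xylan replicate 1 it was 1.84 and called (adjusted p = 0.0277), and over the alternatives run the adjusted p reached 0.558. Both flask groups were above base for this gene, the lower XA library 4.53 times.

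MYCTH_2293953 and MYCTH_80104, the genes that stayed above base in the mixture, also had both XA libraries above both Xylan libraries. MYCTH_2293953 had 963 and 953 CPM in XA, against 664 and 551 CPM in Xylan, a difference of 0.66 ± 0.39 that was not called (adjusted p = 0.218, edgeR; 95% interval -0.19 to 1.51). MYCTH_80104 had 665 and 664 CPM in XA, against 508 and 388 CPM in Xylan, a difference of 0.57 ± 0.26 that was not called (adjusted p = 0.112, edgeR; 95% interval 0.004 to 1.13). In both genes the XA libraries lay close together and above Xylan. Each difference was called when the model held the flask libraries alone (adjusted p = 0.0129 for MYCTH_2293953 and 0.0334 for MYCTH_80104, edgeR). That model called 3481 of all 8320 genes it tested. The highest adjusted p among the alternatives was 0.517 for MYCTH_2293953 and 0.458 for MYCTH_80104.

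In the plates MYCTH_2293953 had 278 and 251 CPM in G2X2 and 1127 and 2718 CPM in X2. Its other values were 69.7 and 69.1 CPM in G2, 134 and 143 CPM in GX and 41.7 and 102 CPM in NoCarbon2. Glucose with xylose thus gave higher values than cellobiose or no carbon for this gene, and GX set its base. MYCTH_80104 had 205.0 and 219.7 CPM in G2X2 and 1014 and 1566 CPM in X2. It had 117 and 93.9 CPM in G2, 104 and 97.1 CPM in GX and 62.1 and 101 CPM in NoCarbon2. The mean in the mixture was 3.69 times the NoCarbon2 mean for MYCTH_2293953 and 2.60 times for MYCTH_80104.

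MYCTH_49700 had the lowest counts of the 8 genes, with 12 and 10 counts in the NoCarbon2 libraries. It stood at 2.29 and 3.61 CPM in G2X2, against 32.1 and 79.2 CPM in X2. The levels were 2.43 and 0.858 CPM in G2, 1.26 and 0.759 CPM in GX and 0.491 and 0.389 CPM in NoCarbon2. Against no carbon alone the mixture mean was 6.71 times higher, while its base was set by G2 replicate 1. In the flasks it had 9.57 and 12.4 CPM in XA, against 6.54 and 7.50 CPM in Xylan (0.65 ± 0.46, adjusted p = 0.298, edgeR; 95% interval -0.34 to 1.64). This gene was not called under any of the alternatives run (adjusted p 0.0697 to 0.622).

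MYCTH_40719 was the gene with higher levels in the flasks than with xylobiose in the plates. It had 136 and 116 CPM in XA, against 109 and 52.7 CPM in Xylan. The difference of 0.64 ± 0.28 was not called (adjusted p = 0.101, edgeR; 95% interval 0.03 to 1.26), but without Xylan replicate 1 it was 1.27 and called (adjusted p = 0.0063). Among the alternatives the adjusted p reached 0.628. In the plates it had 3.53 and 4.11 CPM in G2X2 and 26.0 and 31.6 CPM in X2. Cellobiose alone gave 2.77 and 2.94 CPM, glucose with xylose 3.57 and 2.39 CPM and no carbon 1.76 and 1.87 CPM. The XA mean was 438% and the Xylan mean 281% of the X2 mean, whereas for the other 7 genes both flask groups lay below both X2 libraries.

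MYCTH_2130777 was, with MYCTH_2309660, one of 2 genes with lower levels in XA. It had 24.8 and 19.4 CPM in XA, against 33.9 and 38.1 CPM in Xylan, a difference of -0.70 ± 0.29 that was not called (adjusted p = 0.0859, edgeR; 95% interval -1.34 to -0.06). The difference was called with the flask libraries alone in the model (adjusted p = 0.0293), and its adjusted p reached 0.357 under other alternatives. The model with the flask libraries alone called 3481 of all 8320 genes it tested. In the plates MYCTH_2130777 had 6.92 and 9.85 CPM in G2X2 and 55.0 and 71.3 CPM in X2. It had 9.70 and 5.56 CPM in G2, 3.01 and 3.49 CPM in GX and 12.5 and 8.34 CPM in NoCarbon2. The values with glucose plus xylose were the lowest for this gene, and those of the mixture fell within the span of G2 and NoCarbon2.

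The levels with both polymers in flasks can be set beside those with both disaccharides in plates. Both XA libraries were above the higher G2X2 value for 7 of 8 genes, the exception being MYCTH_2309660, and both Xylan libraries were above it for 8 of 8. Over all tested genes 36.9% had both XA libraries above the higher G2X2 value, and 32.6% had both Xylan libraries above it. Both XA libraries exceeded base for 7 genes and both Xylan libraries for 7, with MYCTH_2309660 the exception each time; over all tested genes these shares were 17.6% and 21%. G2X2 and base were used to choose the genes as low in those libraries, so nothing is read from these counts. The XA mean was 1.48 times the G2X2 mean for MYCTH_2309660 and 2.63 to 33.0 times for the other 7. Flask and plate groups differed in vessel, volume and sugar at once, and these differences cannot be told apart, so no test was made between them.

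**Figure D4:**
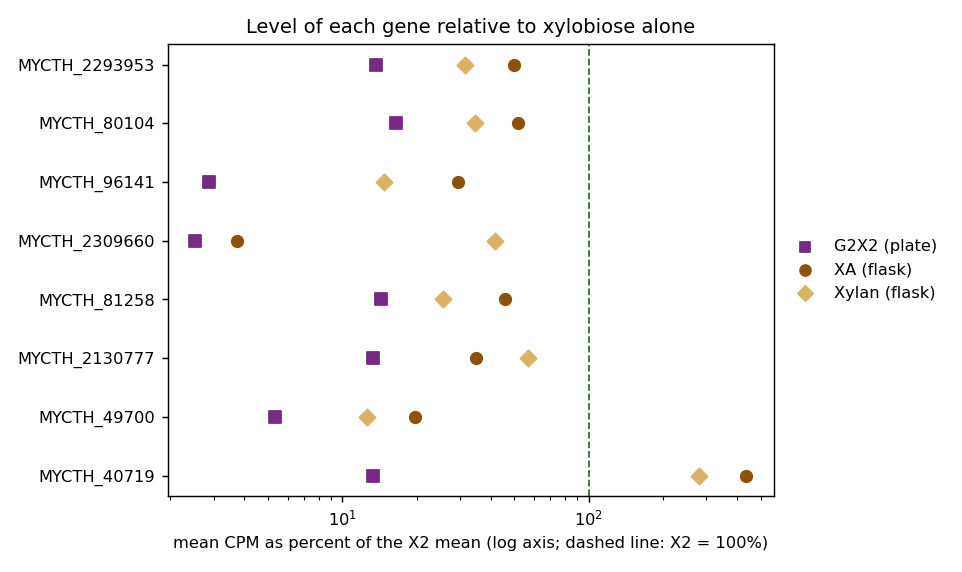
Mean CPM of each of the 8 genes in G2X2, XA and Xylan as a percentage of its X2 mean (log axis), with the X2 mean as a dashed line at 100%. G2X2 lies between 2.53% and 16.5%; MYCTH_40719 is the gene whose flask means exceed the X2 mean, and MYCTH_2309660 the gene whose XA mean lies near its G2X2 mean.

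The known loci of the pathways were read in the same flask comparison. The trivial names are published locus assignments as remembered. Of 7 loci for xylan and xylobiose use, 4 were called higher in XA (the xylanase loci MYCTH_49824 and MYCTH_112050, cdt-2 and the xylanase regulator gene xyr-1), 0 were called lower and 3 were not called. The count was 2 without XA replicate 1 or without Xylan replicate 2. Of 7 regulator and cellobiose loci 6 were called higher and 0 lower. This count was also smaller with 1 flask library left out, except without Xylan replicate 1. Over all tested genes 14.8% were called higher and 17.1% lower. The smallest rise of the 6 was that of the regulator gene clr-1 (MYCTH_2298863, 1.09 on the log2 scale). With 1 flask library left out this rise was 0.88 to 1.33, and its call held only in the fit without Xylan replicate 1. The locus not called was the catabolite repressor gene cre-1 (MYCTH_2310085, -0.58 ± 0.24, adjusted p = 0.0806, edgeR). It was called lower by the DESeq2 test and with the flask libraries alone in the model, and its adjusted p ranged from 0.0238 to 0.321 over the alternatives run. In the plates the cre-1 level was 306 ± 11.2 CPM in G2X2, 625 ± 60.5 CPM in X2 and 402 ± 160.1 CPM in NoCarbon2 (SD, n = 2 each). It was 421 ± 18.2 CPM in G2 and 325 ± 29.4 CPM in GX. The xyr-1 gene (MYCTH_2310145) stood at 89.7 ± 1.15 CPM in G2X2, 33.4 ± 0.731 CPM in X2 and 49.1 ± 12.3 CPM in NoCarbon2. Among the plate groups it was highest in G2, at 159 ± 21.5 CPM, and stood at 29.96 ± 1.78 CPM in GX. Its level in the mixture thus lay between those with cellobiose alone and xylobiose alone. Between X2 and G2X2 xyr-1 went up while the 8 genes went down. From Xylan to XA xyr-1 rose by 1.99 on the log2 scale, while 6 of the 8 genes were higher and 2 lower. The arabinose transporter gene lat-1 (MYCTH_95427) was at 8.72 ± 2.03 CPM in G2X2, 34.5 ± 13.9 CPM in X2, 13.1 ± 0.0332 CPM in G2, 21.3 ± 0.583 CPM in GX and 35.5 ± 1.79 CPM in NoCarbon2, so its X2 mean was not above its NoCarbon2 mean. The part of these regulators in the loss of the 8 genes was not tested.

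In the gene order of the NCBI table for assembly ASM22609v1, which matched 9087 of the 9110 identifiers and all 8 genes, the 8 lie on 4 of 7 chromosomes. The closest pair is MYCTH_49700 and MYCTH_80104, with 7 genes between them; each other pair on a shared chromosome is separated by at least 774 genes. Of the 32 genes within 2 places of a member on either side, 29 were in the count table and 1 of these met the xylobiose condition. It was MYCTH_89872, next to MYCTH_40719, which is among the 11 kept genes. MYCTH_89872 had 3.88 and 7.43 CPM in G2X2 and 21.0 and 29.1 CPM in X2, and 0.327 to 0.871 CPM in the G2, GX and NoCarbon2 libraries. In the flasks it had 72.3 and 76.1 CPM in XA, against 38.3 and 46.5 CPM in Xylan, and was called higher (0.80 ± 0.27, adjusted p = 0.0356, edgeR), a call lost with any of the 4 flask libraries left out (adjusted p 0.0952 to 0.163). The 2 adjacent loci thus both had flask levels above their X2 levels. In the mixture MYCTH_40719 had 13.3% of its X2 mean with a base of 3.57 CPM, and MYCTH_89872 had 22.5% of its X2 mean with a base of 0.871 CPM. No source names the strand setting of the counting, and without it reads of overlapping neighbours cannot be told apart.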

How the data were processed

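The deposited table held counts of reads per gene for 14 libraries, as the authors deposited them and with no normalization. Per the submitters' processing notes the tools were TopHat2 2.0.8b and HTSeq 0.13.5. No genome build, annotation or strand setting is stated in the sources used here. The group titled XA is written AX in the table and in the growth protocol, and both name Avicel with xylan. Locus tags are written in capitals.

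The 8 genes were found with TMM CPM over all 9110 genes (edgeR 4.0.16, R 4.3.3). XA versus Xylan was tested on the 8567 genes left by filterByExpr (minimum count 10), with all 14 libraries and 7 group means in a robust quasi-likelihood fit. All 8 genes passed the filter, which they could do through X2 alone. Each standard error is the absolute log2 fold change divided by the square root of F. DESeq2 1.42.0 was an alternative. The fit was also run on simulated data to check the code, and no result given here rests on that run. The genes, lists and alternatives were chosen with earlier results of these data known. With 8 genes, all were named; other genes named are those nearest the thresholds, fixed pathway loci, and MYCTH_89872, chosen after its values were seen.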

Additional observations from a re-analysis of the deposited data

How the results depend on the processing

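In XA versus Xylan the direction of all 8 genes, and the sign of their median (0.64), held under every alternative run. These were DESeq2 size factors, upper-quartile scaling, no filter, the DESeq2 test, flask libraries only, the replicate block and each of 4 libraries left out. Because the XA and Xylan libraries of these genes did not overlap, a direction could hardly change with 1 library left out. Its holding there adds nothing to the lack of overlap. Each setting that kept both groups whole called 2 of the 8, except flask libraries only, which called 3 higher and 2 lower. That setting also called more of all tested genes, 3481 of 8320, against 2731 of 8567 in the main fit. With 1 flask library left out, 0 to 2 were called higher and 0 to 1 lower, and 1203 to 2193 of all genes were called, against 2731; the lone library of a group is then assumed to vary like the other groups. Without Xylan replicate 2 none of the 8 was called. Upper-quartile scaling moved the median of all genes to 0.11 and the share of calls that were higher to 55.6%, against 46.5%. Titles give the replicates numbers, but same-numbered XA and Xylan libraries did not deviate together (r = -0.0852 across genes). Over all 21 pairs of groups r ranged from -0.209 to 0.248, highest between X2 and NoCarbon2, which the rule used. With the replicate block 2562 genes were called and the same number of the 8.

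The set itself had 5 genes with raw library totals (without MYCTH_2130777, MYCTH_2293953 and MYCTH_81258), 3 with a fold of 6, 12 with a fold of 3, 21 from replicate 1 libraries only and 36 from replicate 2 libraries only. With 1 plate library left out it had 8 to 21 genes and held all 8 each time. It had 21 without X2 replicate 1 and 16 without NoCarbon2 replicate 1. Leaving out an X2 or G2X2 library can only loosen the conditions. Leaving out a G2, GX or NoCarbon2 library can tighten only the ceiling of 4 times base. That all 8 were held was thus largely fixed by the rule and is no check of the set. Of the 21 genes chosen on replicate 1 libraries, X2 in replicate 2 was above G2X2 for 21, at least 4 times G2X2 for 15 and at least 4 times base for 11, and 9 met all conditions there. Of the 36 chosen on replicate 2, the numbers in replicate 1 were 35, 23, 13 and 9. The share of all genes meeting each condition was not computed, so nothing about the set is read from these counts. Depth limits MYCTH_49700 most, with 10 counts in a NoCarbon2 library.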
